A study of Populus alba x Populus glandulosa with 12 samples.

Results

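Leaves of 84K poplar on day 9 of drought were compared with leaves on day 0, the control (labelled CK), with 3 libraries a day. 84K is a hybrid clone of Populus alba and Populus glandulosa widely used as a transformable model tree, and all plants were wild type. The comparison covered every gene with a value of at least 1 FPKM (fragments per kilobase of transcript, scaled to the library's mapped fragments) in at least 3 of these 6 libraries, 39235 of the 85392 gene models. Of the models left out, 28999 were listed at 0 in all 6 libraries and 17158 had values too low to pass. A gene near 0 on 1 day could pass through the other day alone, which favours a change toward that day in counts of tested genes. The series also holds 3 libraries each from days 3 and 6 of the same drought, 12 libraries in all, and these serve here for comparison only. All 4 groups carry the label drought, day 0 included, and no leaves without drought were sampled on day 9, so drought and 9 days of passing time cannot be told apart. Each day also has its own batch label, and the effects of batch and day cannot be told apart either. The series text calls the replicates biological without saying that they came from separate plants, and p-values then measure only the spread between these libraries.

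Plants that lose water make abscisic acid from carotenoids. The hormone binds PYL receptors, which inhibit PP2C phosphatases and so free SnRK2 kinases to activate ABF transcription factors. Guard cells close, sugars of the raffinose family and other compatible solutes build up, and in leaves under long drought the photosynthetic apparatus is taken down and its nitrogen is moved out, much as in leaf ageing.

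Changes are given as differences in mean log2(FPKM + 1), which understate the change of genes near 0, and a gene was called when limma's adjusted p was under 0.05 without a minimum change. On day 9, 12237 genes were higher than on day 0, 31.2% of those tested, and 18179 were lower, 46.3%, so most expressed genes differed and a call alone says little about a gene. A rise of at least 1 on the log2 scale was seen in 4894 genes (12.5%) and a fall of that size in 8156 (20.8%). The median over all tested genes was -0.18, and every list median below is to be read against it. Every count of rises and falls is likewise to be read against the 31.2% and 46.3%. After median-ratio scaling of the libraries it was 0.01, and 50.8% of the calls were higher, against 40.2% on the deposited scale. Of the tested models 20312 carry an A and 18923 a B in their name, and the share of calls was alike in both, at 31.2% higher and 46.2% lower in A and 31.1% and 46.5% in B. Reads from near-identical copies may be split between them, and the sources used here do not give how they were counted.

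The 6 libraries had FPKM sums of 727785 to 730723 on day 0 and 700689 to 715304 on day 9. Genes at 1 FPKM or more numbered 37968 to 38140 on day 0 and 35079 to 35677 on day 9. The 10 most abundant genes held 3.68% to 3.75% of the FPKM sum on day 0 and 7.51% to 8.11% on day 9. In all, 199 genes whose day 0 mean reached 1 FPKM were listed at 0 in every day 9 library, and 153 genes were the reverse.

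The largest rise among genes with a KEGG orthology (KO) name was in galactinol synthase, the enzyme that makes the galactosyl donor for raffinose. Pag.B08G001455.v3.1, named GOLS, stood at 0.28, 0.23 and 0.36 FPKM on day 0 and at 889.8, 853 and 835 FPKM on day 9. The groups lay far apart, with a log2 change of 9.38 ± 0.054 SE (limma adjusted p = 2.72e-10). The summed FPKM of all 14 GOLS models was 21.99, 25.2 and 22.4 on day 0 and 2126, 2104 and 2051 on day 9. Among the 12 tested GOLS genes, 10 rose and 2 fell. Raffinose synthase (KO name E2.4.1.82), which uses that donor, followed the same direction in 12 of 14 tested genes, and its summed FPKM went from 99.97, 102 and 105 to 3772, 3463 and 3523. The gene with the most RNA among them, Pag.B06G002363.v3.1, went from 31.6, 32.1 and 33.5 FPKM to 1924, 1697 and 1748 FPKM, a log2 change of 5.74 ± 0.056 SE (limma adjusted p = 8.91e-10). Inositol-phosphate synthase (INO1), which starts the route to the inositol that galactinol needs, rose in 4 of 4 genes. Its summed FPKM was 99.8, 102 and 103 on day 0 and 826, 725 and 768 on day 9.

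Over the whole osmolyte list, 47 rose, 32 fell and 9 did not pass the test of 88 tested members (121 in the table), with a median log2 change of 0.54. The list held 0.158 ± 0.0028% (mean ± SD, n = 3) of the FPKM sum on day 0 and 1.13 ± 0.029% on day 9. Proline genes of opposite roles both rose. The synthesis enzyme P5CS rose in 4 of 4 genes, with a summed FPKM of 29.8, 32.7 and 32.3 on day 0 and 48.9, 49.7 and 46.4 on day 9. Proline dehydrogenase, which degrades proline, rose in 3 of 3 tested genes, from 99.9, 95.3 and 96.7 to 739, 789 and 801. Its summed level was above that of P5CS in every library of both days. Trehalose-phosphate synthase (TPS) went mostly the other way, with 3 genes higher and 15 lower of 23. The largest fall in the list was in Pag.A08G000608.v3.1, which carries the names GOLS and PANK together and went from 105, 110.2 and 107 FPKM to 10.3, 10.1 and 10.04 FPKM.

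**Figure D1:**
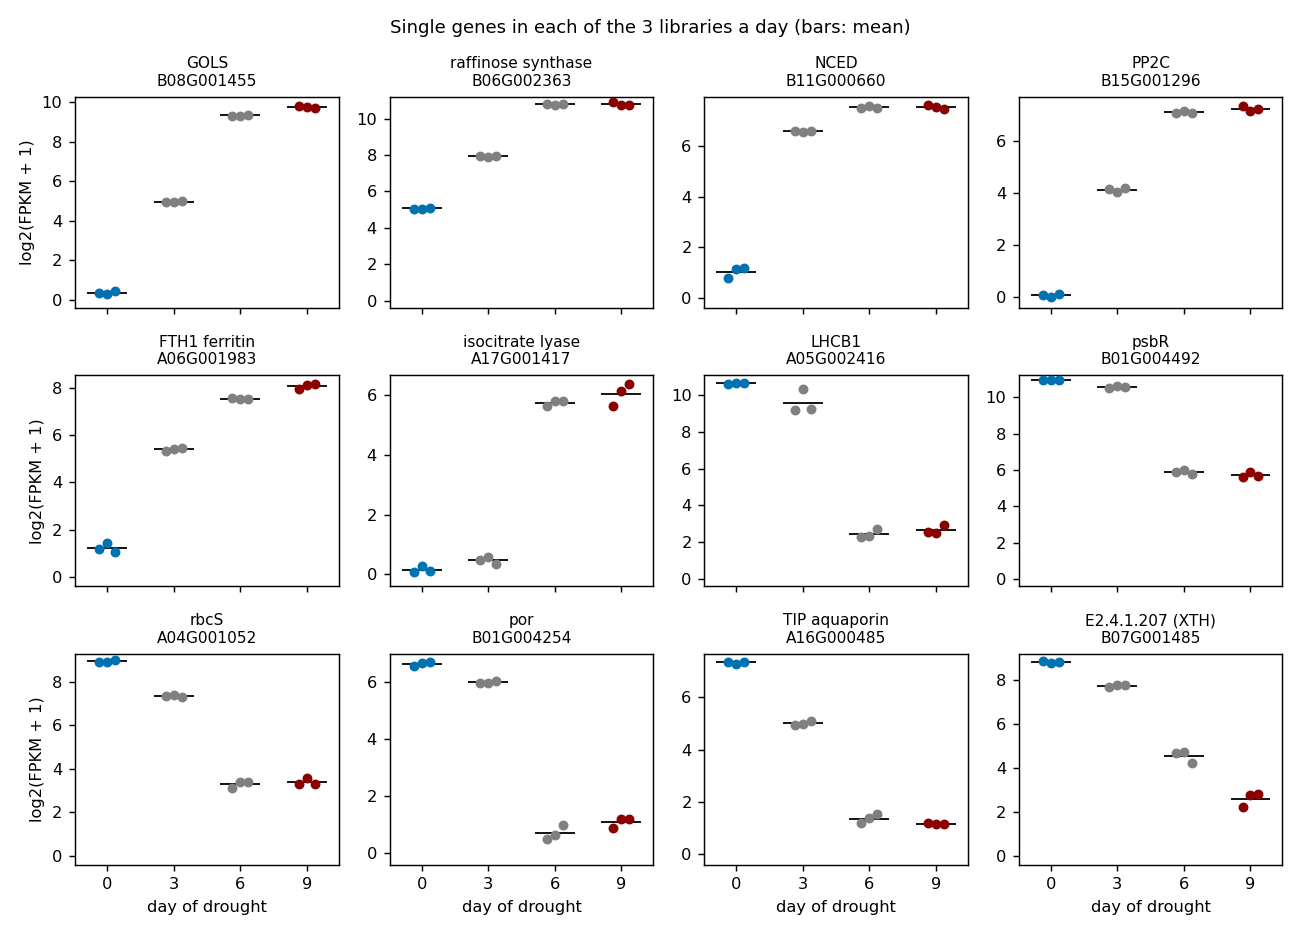
Each panel shows 1 gene, with the day of drought on the x axis, log2(FPKM + 1) on the y axis, a point for each of the 3 libraries a day and a bar for their mean. In all 12 genes the day 9 points lie clear of the day 0 points, with 6 genes higher, such as GOLS at 835 FPKM or more on day 9, and 6 lower, such as LHCB1 at 6.76 FPKM or less.

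Sugar handling changed in both directions. In the starch and sugar list, 55 rose, 59 fell and 20 did not pass the test of 134 tested members (198 in the table), with a median log2 change of -0.07, a median that turned to 0.10 under median-ratio scaling and to 0.11 in the 84 genes with a mean of at least 5 FPKM. A SWEET sugar exporter, Pag.A01G000814.v3.1, rose from 0.17, 0.18 and 0.35 FPKM to 539.7, 515 and 551 FPKM, a log2 change of 8.77 ± 0.068 SE (limma adjusted p = 5.78e-10). Its B counterpart in name, Pag.B01G000717.v3.1, went from 0.09, 0.09 and 0.15 to 276, 266 and 293 FPKM. Other SWEET genes fell, among them Pag.B13G000132.v3.1, from 85.2, 85.6 and 81.8 to 7.88, 13.5 and 11.96 FPKM. Alpha-amylase, which breaks starch internally, had its largest rise in Pag.B02G001408.v3.1, from 5.82, 5.21 and 5.37 to 56.2, 51.99 and 51.9 FPKM. A beta-amylase (E3.2.1.2), Pag.B17G001409.v3.1, fell from 372, 358 and 362 FPKM to 5.52, 11.6 and 10.2 FPKM, a log2 change of -5.23 ± 0.26 SE (limma adjusted p = 1.94e-05).

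Abscisic acid genes split by role. For the phosphatases that restrain the pathway, 20 rose, 3 fell and 4 did not pass the test of 27 tested members (30 in the table), with a median log2 change of 2.86. The summed FPKM of the 29 PP2C models was 187, 179 and 175 on day 0 and 1671, 1517 and 1575 on day 9. Pag.B15G001296.v3.1 stood at 0.07, 0 and 0.09 FPKM before drought and at 159, 138 and 147 FPKM on day 9, a log2 change of 7.14 ± 0.071 SE (limma adjusted p = 9.31e-10). For the PYL receptors, 3 rose, 19 fell and 0 did not pass the test of 22 tested members (30 in the table), with a median log2 change of -1.07, and for its 12 genes with a mean of at least 5 FPKM the median was -0.45. The receptor with the largest fall, Pag.A16G000234.v3.1, went from 6.76, 7.1 and 7.42 to 0.62, 0.82 and 0.85 FPKM. The receptor with the largest rise, Pag.A12G001172.v3.1, went only from 10.3, 10.2 and 10.2 to 17.01, 18.8 and 16.2 FPKM. Among the SnRK2 kinases, 13 rose, 11 fell and 3 did not pass the test of 27 tested members (30 in the table), with a median log2 change of 0.14. Pag.B02G001087.v3.1 rose from 2.11, 1.71 and 2.4 to 20.8, 22.8 and 21.5 FPKM, a log2 change of 2.89 ± 0.094 SE (limma adjusted p = 9.93e-08). The largest fall was in Pag.A19G000132.v3.1, where the day 9 libraries spread widely, at 6.03, 0.72 and 2.52 FPKM against 18.9, 21.6 and 23 FPKM on day 0 (log2 change -2.66 ± 0.54 SE (limma adjusted p = 0.00782)). Of the ABF factors, 17 rose, 6 fell and 2 did not pass the test of 25 tested members (44 in the table), with a median log2 change of 0.50, and for its 16 genes with a mean of at least 5 FPKM the median was 0.86. Among them Pag.A02G001418.v3.1 rose most, from 5.33, 4.95 and 5.75 to 29.2, 24.9 and 24.7 FPKM.

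Synthesis and breakdown of the hormone did not move as blocks. In the synthesis list, 13 rose, 17 fell and 0 did not pass the test of 30 tested members (40 in the table), with a median log2 change of -0.49, and for its 20 genes with a mean of at least 5 FPKM the median was 2.15. NCED, the dioxygenase that cleaves carotenoids in the first step committed to the hormone, rose in 4 genes and fell in 4. Pag.B11G000660.v3.1 stood at 0.73, 1.17 and 1.23 FPKM on day 0 and 194, 185 and 176 FPKM on day 9, a log2 change of 6.52 ± 0.10 SE (limma adjusted p = 4.48e-09). Pag.B19G001289.v3.1 did the opposite, at 60.3, 68.02 and 61.1 FPKM on day 0 and 0.74, 2.35 and 0.89 FPKM on day 9, a log2 change of -4.85 ± 0.26 SE (limma adjusted p = 1.4e-05). The summed FPKM of all NCED models was 120.2, 122 and 121 on day 0 and 529.7, 493 and 496 on day 9, so the total was higher in every day 9 library. Beta-carotene hydroxylase (crtZ), which acts upstream, rose in 7 of 7 tested genes, and Pag.B04G000758.v3.1 went from 0.52, 0.65 and 0.78 to 65.5, 59.6 and 64.6 FPKM. Another entry, Pag.B04G000763.v3.1, had almost the same values, so reads may be shared between these copies. AAO3, the oxidase of the last step, fell in 4 of 4 genes. Of the 12 hydroxylases that inactivate the hormone (CYP707A), 6 rose and 6 fell, with Pag.A09G000355.v3.1 going from 0.32, 0.42 and 0.31 to 62.1, 51.9 and 54.2 FPKM and Pag.B02G001406.v3.1 from 14.8, 14.5 and 13.8 to 0, 0.13 and 0.21 FPKM. XERICO, a small RING protein known in Arabidopsis to raise abscisic acid, was among the 10 KO names with the highest medians, at 2.69. One of its genes, Pag.A10G000663.v3.1, named here after its values were seen, was listed at 0 in all day 0 libraries and had 4.18, 37.4 and 1.31 FPKM on day 9, with 1 library far above the others, and was not called.

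Genes of the antenna and photosystem lists mostly fell together, while genes named for plastid-encoded RNA mostly did not pass the test. All 49 tested light-harvesting antenna genes were lower on day 9. Their median log2 change was -4.72, and their share of the FPKM sum went from 2.86 ± 0.045% to 0.103 ± 0.012% (mean ± SD, n = 3). The 13 LHCB1 models, which encode the main antenna of photosystem II, summed to 7535, 7596 and 7793 FPKM on day 0 and to 30.1, 48.5 and 52.6 FPKM on day 9. Pag.A05G002416.v3.1 alone went from 1574, 1609 and 1619 FPKM to 4.86, 4.6 and 6.76 FPKM, a log2 change of -7.98 ± 0.12 SE (limma adjusted p = 1.43e-08). Pag.B14G001625.v3.1, an LHCB2 gene, went from 446, 463 and 449.6 to 0.42, 0.63 and 0.46 FPKM, a log2 change of -8.24 ± 0.062 SE (limma adjusted p = 5.66e-10). Minor antenna genes kept somewhat more RNA. LHCB4 summed to 1836, 1868 and 1885 FPKM on day 0 and 156, 188 and 181 FPKM on day 9. Outside the antenna list, psbS, the sensor of excess light, summed to 422, 456 and 434 FPKM on day 0 and 99.8, 102 and 104 FPKM on day 9. Of 37 tested genes named for plastid-encoded RNA (268 in the table), 1 rose, 5 fell and 31 did not pass the test. Their median log2 change was -0.17, near the -0.18 of all tested genes. The summed FPKM of these 37 genes overlapped between the days, at 181 to 237 on day 0 and 147 to 204 on day 9.

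Among photosystem and electron transport genes, 5 rose, 93 fell and 9 did not pass the test of 107 tested members (120 in the table), with a median log2 change of -3.01. psbR, a small subunit of photosystem II, had Pag.B01G004492.v3.1 at 1965, 1958 and 1995 FPKM on day 0 and 48.99, 59.5 and 50.8 FPKM on day 9, a log2 change of -5.19 ± 0.071 SE (limma adjusted p = 2.98e-09). Pag.B11G000022.v3.1, named psaG for a photosystem I subunit, had 104, 121 and 115 FPKM on day 0 and was listed at 0 in all 3 day 9 libraries. The largest rise in this list was in a ferredoxin gene (petF), Pag.B04G001966.v3.1, from 3.77, 3.37 and 4.08 to 8.83, 9.24 and 9.64 FPKM. In carbon fixation, 6 rose, 40 fell and 4 did not pass the test of 50 tested members (61 in the table), with a median log2 change of -1.39. The small subunit of Rubisco (rbcS) summed to 5241, 5267 and 5392 FPKM on day 0 and 222, 268 and 243 FPKM on day 9. Its members did not move evenly, since Pag.A04G001052.v3.1 went from 482, 486 and 511 to 8.79, 10.9 and 8.97 FPKM while the weakly expressed Pag.B18G000977.v3.1 went only from 6.43, 7.05 and 7.01 to 3.76, 5.37 and 5.35 FPKM. In photorespiration, which recovers carbon lost through Rubisco's oxygenation, 4 rose, 34 fell and 8 did not pass the test of 46 tested members (54 in the table), with a median log2 change of -1.42. A glycine decarboxylase gene, Pag.B06G000555.v3.1, fell from 91.8, 102 and 103 to 3.78, 4.55 and 4.23 FPKM. A serine hydroxymethyltransferase gene, Pag.A17G001228.v3.1, rose from 10.7, 11.2 and 11.7 to 80.3, 76.7 and 79.8 FPKM, a log2 change of 2.71 ± 0.050 SE (limma adjusted p = 8.12e-09).

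Chlorophyll genes divided into synthesis and breakdown. In synthesis, 5 rose, 42 fell and 2 did not pass the test of 49 tested members (65 in the table), with a median log2 change of -2.35. Protochlorophyllide reductase (por), the light-driven step, summed to 394, 422 and 422 FPKM on day 0 and 24.7, 34.7 and 29.2 FPKM on day 9. The largest of the 5 rises was in a glutamyl-tRNA reductase gene (hemA), Pag.A09G000810.v3.1, from 2.45, 1.71 and 2.38 to 17.3, 17.1 and 18.8 FPKM. In breakdown, 14 rose, 2 fell and 4 did not pass the test of 20 tested members (29 in the table), with a median log2 change of 1.41. STAY-GREEN (SGR), the magnesium-removing protein that starts degradation, summed to 58.3, 62.9 and 62.3 FPKM on day 0 and 199, 185 and 191 FPKM on day 9. Pheophorbide oxygenase (PAO), which opens the ring, summed to 50.4, 52.4 and 51.8 FPKM and 179.6, 164 and 177 FPKM. In bulk leaf RNA, fewer cells of a type and less RNA per cell cannot be told apart.

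**Figure D2:**
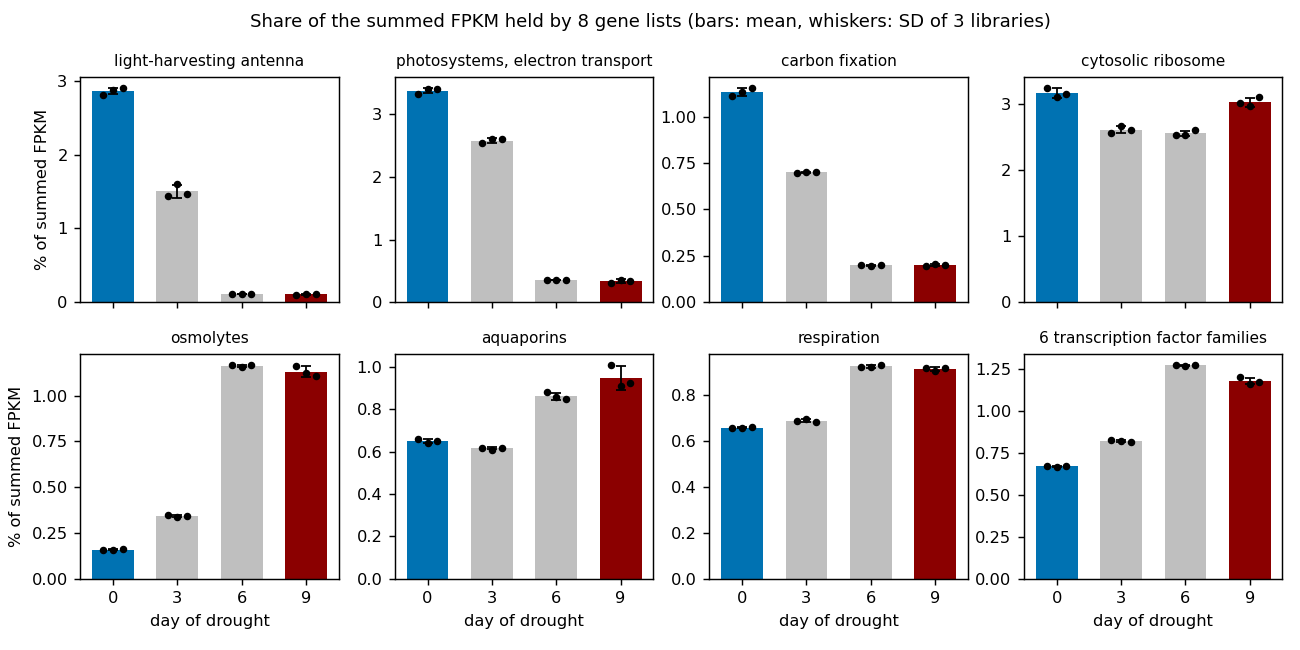
Bars give the mean percent of the summed FPKM held by each of 8 gene lists (y axis) on each day of drought (x axis), whiskers the SD and points the 3 libraries. The antenna goes from 2.86 ± 0.045% on day 0 to 0.103 ± 0.012% on day 9, while osmolyte genes go from 0.158 ± 0.0028% to 1.13 ± 0.029% and cytosolic ribosome genes from 3.16 ± 0.07% to 3.02 ± 0.068%.

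Named enzymes for the use of amino acids and fatty acids as fuel were mostly higher. In this list of branched-chain amino acid and fatty acid degradation, 45 rose, 5 fell and 18 did not pass the test of 68 tested members (100 in the table), with a median log2 change of 0.51, and for its 50 genes with a mean of at least 5 FPKM the median was 0.96. The wider KEGG pathways held more falls, with 57 higher and 33 lower of 110 in fatty acid degradation (median 0.28) and 49 and 33 of 109 in valine, leucine and isoleucine degradation (median 0.18). The list's share of the FPKM sum went from 0.128 ± 0.0012% to 0.341 ± 0.0073%. Acyl-CoA oxidase, the first enzyme of peroxisomal beta-oxidation, rose in 14 of 16 genes and fell in 0. Pag.A16G000293.v3.1 went from 12.97, 15.2 and 15.4 to 102, 95.7 and 100.5 FPKM. The glyoxylate cycle turns acetyl units into organic acids through isocitrate lyase and malate synthase. Isocitrate lyase gene Pag.A17G001417.v3.1 stood at 0.05, 0.22 and 0.09 FPKM on day 0 and 47.9, 68.3 and 80.4 FPKM on day 9, a log2 change of 5.86 ± 0.19 SE (limma adjusted p = 2.99e-07). Malate synthase models summed to 11.4, 10.5 and 10.5 FPKM on day 0 and 258, 251 and 269 FPKM on day 9. Phosphoenolpyruvate carboxykinase (pckA), which leads from organic acids toward sugar, did not change evenly. Pag.A07G001670.v3.1 rose from 7.47, 7.39 and 7.95 to 91.6, 90.04 and 97.8 FPKM, while the family summed to 153, 155 and 154 FPKM on day 0 and 199, 199.97 and 211 FPKM on day 9. A branched-chain keto acid dehydrogenase gene, Pag.B05G001863.v3.1, rose from 3.54, 3.47 and 3.4 to 72.9, 68.3 and 68.5 FPKM, a log2 change of 3.99 ± 0.051 SE (limma adjusted p = 2.38e-09).

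In the respiration list, 100 rose, 61 fell and 59 did not pass the test of 220 tested members (252 in the table), with a median log2 change of 0.15. Alternative oxidase (AOX), which passes electrons to oxygen without pumping protons, rose in 6 of 6 genes. Pag.B03G001244.v3.1 stood at 5.26, 4.54 and 5.34 FPKM on day 0 and 125, 113 and 123 FPKM on day 9, a log2 change of 4.33 ± 0.070 SE (limma adjusted p = 5.35e-09). Citrate synthase rose in 7 of 8 tested genes, and its family summed to 129, 129 and 132 FPKM on day 0 and 392, 374 and 406 FPKM on day 9. A malate dehydrogenase gene (MDH2), Pag.A01G003308.v3.1, fell from 66.99, 70.1 and 65.5 to 3.38, 5.8 and 4.92 FPKM, against 11 of 16 genes of that name that rose.

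Nitrogen and protein turnover genes were mixed, as were all tested genes, of which 31.2% rose and 46.3% fell. The nitrogen remobilisation list also holds nitrogen assimilation genes, such as those of glutamine synthetase and glutamate synthase. In this list, 18 rose, 30 fell and 6 did not pass the test of 54 tested members (68 in the table), with a median log2 change of -0.42. Asparagine synthetase, which packs nitrogen for transport, had Pag.B09G000719.v3.1 at 46.9, 51.6 and 71.2 FPKM on day 0 and 637, 634 and 609 FPKM on day 9, a log2 change of 3.47 ± 0.15 SE (limma adjusted p = 3.5e-06). Glutamine synthetase (glnA) summed to 1048, 1061 and 1047 FPKM on day 0 and 359.9, 385 and 389 FPKM on day 9, with Pag.A08G000514.v3.1 going from 132.8, 143 and 140.2 to 2.29, 3.83 and 3.93 FPKM. Glutamate synthase (GLT1) rose in 4 of 4 genes, while the ferredoxin-dependent form (GLU) fell in 4 of 4. Of autophagy genes, 39 rose, 21 fell and 19 did not pass the test of 79 tested members (86 in the table), with a median log2 change of 0.22. The ATG8 gene Pag.A10G001703.v3.1, whose product coats autophagosomes, rose from 2.63, 2.24 and 3.42 to 88.7, 79.7 and 89.8 FPKM. For the proteasome, 69 rose, 27 fell and 49 did not pass the test of 145 tested members (165 in the table), with a median log2 change of 0.13. The largest fall was in a core subunit gene (PSMA4), Pag.A06G002978.v3.1, from 519, 447 and 454 to 39.2, 49.7 and 46.8 FPKM. Of vacuolar and cysteine proteases, 17 rose, 23 fell and 8 did not pass the test of 48 tested members (71 in the table), with a median log2 change of -0.06, which turned to 0.14 under scaling and to 0.06 in the 34 genes with a mean of at least 5 FPKM. These protease counts lay near the shares over all tested genes. A gene named for a cysteine protease inhibitor (CST3), Pag.B02G002510.v3.1, was among the 10 largest rises, from 2.24, 3.54 and 2.87 to 743, 604 and 660.01 FPKM.

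Iron storage and redox genes did not move as 1 group. Ferritin (FTH1), which stores iron in plastids, rose in 8 of 9 genes, and its summed FPKM went from 41.1, 40.8 and 39.9 to 811, 933 and 942. Pag.A06G001983.v3.1 went from 1.28, 1.69 and 1.06 FPKM to 247, 273 and 287 FPKM, a log2 change of 6.86 ± 0.10 SE (limma adjusted p = 5.27e-09). In the antioxidant list, 29 rose, 77 fell and 17 did not pass the test of 123 tested members (156 in the table), with a median log2 change of -0.50. Copper-zinc superoxide dismutase (SOD1) fell in 9 of 10 genes and rose in 0, and it summed to 135, 132 and 133.3 FPKM on day 0 and 35.6, 39.9 and 38.8 FPKM on day 9. Catalase summed to 373, 386 and 386 FPKM and 489.8, 490.5 and 505 FPKM, higher in every day 9 library. The peroxiredoxin gene Pag.A08G001560.v3.1 (PRDX6) had 539, 556 and 573 FPKM on day 0 and was listed at 0 in all day 9 and all day 6 libraries. Glutaredoxin gene Pag.A12G001798.v3.1 rose from 0.29, 0.35 and 0.51 to 233, 205 and 247 FPKM, but Pag.A12G000637.v3.1 has the same day 0 values, so reads of these copies may be shared. Of glutathione transferases, 22 rose, 29 fell and 6 did not pass the test of 57 tested members (128 in the table), with a median log2 change of -0.18, which turned to 0.05 under scaling. Pag.B19G001533.v3.1 rose from 11.2, 14.3 and 11.2 to 147, 161 and 168 FPKM, and Pag.A02G002628.v3.1 fell from 679.7, 679.97 and 683 to 52.5, 75.7 and 62.1 FPKM.

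Among heat shock proteins and their factors, 109 rose, 60 fell and 64 did not pass the test of 233 tested members (321 in the table), with a median log2 change of 0.17. Small heat shock proteins (HSP20) rose in 18 of 38 tested genes and fell in 6. Their 68 models summed to 175, 189.5 and 164 FPKM on day 0 and 514, 422 and 494 FPKM on day 9, higher in every day 9 library. Pag.B10G001862.v3.1 rose most, from 0.11, 0.23 and 0 to 34.2, 32.2 and 33.2 FPKM. A chaperonin gene of the groEL type, Pag.B10G001293.v3.1, fell from 24.7, 24.6 and 23.2 to 1.93, 3.07 and 2.19 FPKM.

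Water channel genes were counted by the membrane that holds their product. Plasma membrane intrinsic proteins (PIP) rose in 13 of 24 genes and fell in 11, whereas tonoplast intrinsic proteins (TIP), the vacuolar channels, rose in 4 of 22 and fell in 16. PIP models summed to 3201, 3116 and 3175 FPKM on day 0 and 6081, 5360.1 and 5547 FPKM on day 9, and TIP models to 1505, 1462 and 1461 FPKM and 979.98, 923 and 947 FPKM. Single genes moved far in both directions within each family. Pag.B08G001800.v3.1 (PIP) rose from 55.97, 59.6 and 57.2 FPKM to 1779, 1448 and 1508 FPKM, a log2 change of 4.75 ± 0.078 SE (limma adjusted p = 5.51e-09), and Pag.A09G001304.v3.1 (PIP) fell from 582, 547 and 548 to 34.01, 59.5 and 50.9 FPKM. Pag.A16G000485.v3.1 (TIP) fell from 164, 156 and 163 FPKM to 1.31, 1.24 and 1.24 FPKM, a log2 change of -6.16 ± 0.049 SE (limma adjusted p = 5.97e-10), while Pag.B10G002023.v3.1 (TIP) rose from 58.6, 54.6 and 54.5 to 431, 395 and 405 FPKM. Over all 60 tested aquaporin genes the median log2 change was -0.74.

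Cell wall genes were mostly lower, and a few rose strongly. In this list, 37 rose, 117 fell and 13 did not pass the test of 167 tested members (324 in the table), with a median log2 change of -1.49. Cellulose synthase (CESA) fell in 32 of 33 genes and rose in 0, and its models summed to 496, 489 and 497 FPKM on day 0 and 113, 121 and 116 FPKM on day 9. Xyloglucan endotransglucosylase genes (E2.4.1.207), which loosen and rejoin wall chains, rose in 11 and fell in 26 of 37, and Pag.B07G001485.v3.1 went from 466, 442 and 448 FPKM to 3.64, 5.77 and 6.13 FPKM. Of polygalacturonase (E3.2.1.15), which cuts pectin, only 7 of 41 models were tested, and 6 were higher. The largest rise was in Pag.A09G000601.v3.1, from 0.16, 0 and 0.06 to 18.5, 20.3 and 24.8 FPKM. All 41 models summed to 2.73, 6.06 and 3.5 FPKM on day 0 and 44.8, 51.6 and 59.03 FPKM on day 9. With day 0 so low, these genes could pass the filter through day 9 alone, which favours rises in that count. A laccase gene (E1.10.3.2), of a family known for lignin polymerisation, Pag.B05G002004.v3.1, was listed at 0 in all day 0 libraries and had 124, 167 and 169 FPKM on day 9. For the cuticle and suberin list, 20 rose, 31 fell and 3 did not pass the test of 54 tested members (140 in the table), with a median log2 change of -0.51. There CER1, which makes wax alkanes, rose in 4 of 4 tested genes (8 in the table), and Pag.B14G001784.v3.1 went from 0, 0 and 0.12 to 45.5, 45.2 and 42.4 FPKM. That gene passed the filter through day 9 alone, so its rise was favoured by the filter. 3-Ketoacyl-CoA synthase (KCS), which lengthens fatty acids for waxes, rose in 7 and fell in 21 of 31 genes, with Pag.B06G000672.v3.1 going from 82.3, 79.6 and 79.9 to 1.55, 2.53 and 2.31 FPKM. Of 20 tested flavonoid genes in a list of named enzymes (53 in the table) 17 rose and 2 fell (median 1.26). The wider KEGG pathway of flavonoid biosynthesis was split, with 31 higher and 26 lower of 64 (median 0.15). In that list leucoanthocyanidin reductase Pag.A10G001481.v3.1 went from 2.99, 2.75 and 3.89 to 50.9, 46.3 and 40.03 FPKM. Of 76 tested phenylpropanoid genes 35 rose and 30 fell (median 0.02), and for the 44 genes with a mean of at least 5 FPKM the median was 0.33.

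Growth hormone genes were mostly lower. In the auxin list, 40 rose, 89 fell and 16 did not pass the test of 145 tested members (258 in the table), with a median log2 change of -0.94. The AUX/IAA repressors, which auxin itself induces, rose in 6 and fell in 39 of 47 genes, and summed to 1361, 1280.5 and 1279 FPKM on day 0 and 315, 359 and 358 FPKM on day 9. The auxin-responsive SAUR genes were split, with 18 higher and 19 lower of 46. Pag.A09G001222.v3.1 (SAUR) went from 183, 186 and 184 FPKM to 0, 0.21 and 0 FPKM, and Pag.B03G001340.v3.1 (SAUR) from 2.45, 0.63 and 2.74 to 65.6, 51.5 and 79.1 FPKM. In the cytokinin and gibberellin list, 19 rose, 55 fell and 14 did not pass the test of 88 tested members (191 in the table), with a median log2 change of -0.51. The gibberellin receptor gene Pag.A02G000021.v3.1 (GID1) rose, from 0.1, 0.07 and 0.13 to 35.2, 31.5 and 31.97 FPKM. Brassinosteroid synthesis fell in 25 of 26 genes of its KEGG pathway, including Pag.A07G001825.v3.1 (DWF4), from 34.2, 34.2 and 34.8 to 0.79, 1.56 and 1.62 FPKM.

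Stress hormone genes other than those of abscisic acid leaned higher or were split. In the ethylene list, 24 rose, 13 fell and 5 did not pass the test of 42 tested members (73 in the table), with a median log2 change of 0.39. ACC synthase of the ACS1_2_6 type, the step that sets ethylene output, rose in 4 of 5 genes, and Pag.B02G001770.v3.1 went from 0.27, 0.13 and 0.4 FPKM to 110.2, 100.7 and 103 FPKM, a log2 change of 6.39 ± 0.088 SE (limma adjusted p = 2.98e-09). In the jasmonate list, 32 rose, 26 fell and 12 did not pass the test of 70 tested members (95 in the table), with a median log2 change of 0.08, and for its 53 genes with a mean of at least 5 FPKM the median was -0.07. The repressor gene Pag.A03G001695.v3.1 (JAZ) rose from 10.1, 10.5 and 12.4 to 126, 120.2 and 126 FPKM. A lipoxygenase gene (LOX2S), Pag.A01G000345.v3.1, fell from 45.98, 50.8 and 47.5 to 1.34, 2.09 and 1.32 FPKM.

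Histone genes were mostly lower, and cell cycle genes lay closer to the background. In the cell cycle list, 10 rose, 31 fell and 15 did not pass the test of 56 tested members (155 in the table), with a median log2 change of -0.52, and for its 24 genes with a mean of at least 5 FPKM the median was -0.09, against -0.08 over all genes of that level. For histones, 7 rose, 54 fell and 17 did not pass the test of 78 tested members (102 in the table), with a median log2 change of -0.89. Linker histone H1 fell in 12 of 13 genes, and its 17 models summed to 952, 934 and 938 FPKM on day 0 and 97.1, 148 and 134 FPKM on day 9. A histone H4 gene, Pag.A07G001698.v3.1, fell from 88.3, 79.2 and 77.4 to 6.42, 10.9 and 6.75 FPKM, while another, Pag.B10G002064.v3.1, rose from 20.4, 23.9 and 18.3 to 66.5, 52.6 and 67.3 FPKM. Of the circadian clock genes, 7 rose, 22 fell and 5 did not pass the test of 34 tested members (38 in the table), with a median log2 change of -0.62. ELF3, of the evening complex, summed to 95.7, 97.1 and 95.1 FPKM on day 0 and 31.4, 33.3 and 32.96 FPKM on day 9. The labels do not give the hour of sampling, so its part in these values was not tested.

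In 6 families of transcription factors, 180 rose, 171 fell and 58 did not pass the test of 409 tested members (764 in the table), with a median log2 change of 0.08, and for the 208 genes with a mean of at least 5 FPKM the median was 0.34. Their share of the FPKM sum went from 0.671 ± 0.0028% to 1.18 ± 0.02%. The families differed in their counts, with HD-ZIP higher in 15 and lower in 45 of 64 genes, EREBP higher in 34 and lower in 25 of 69, and WRKY33 higher in 6 of 7. Pag.B14G000966.v3.1 (HD-ZIP) rose most, from 5.47, 5.07 and 4.85 FPKM to 371, 360.04 and 373 FPKM, a log2 change of 5.91 ± 0.050 SE (limma adjusted p = 7.01e-10). Pag.B09G001346.v3.1 (MYBP) fell most, from 37.4, 38.7 and 36.4 to 0.25, 0.28 and 0.27 FPKM.

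**Figure D3:**
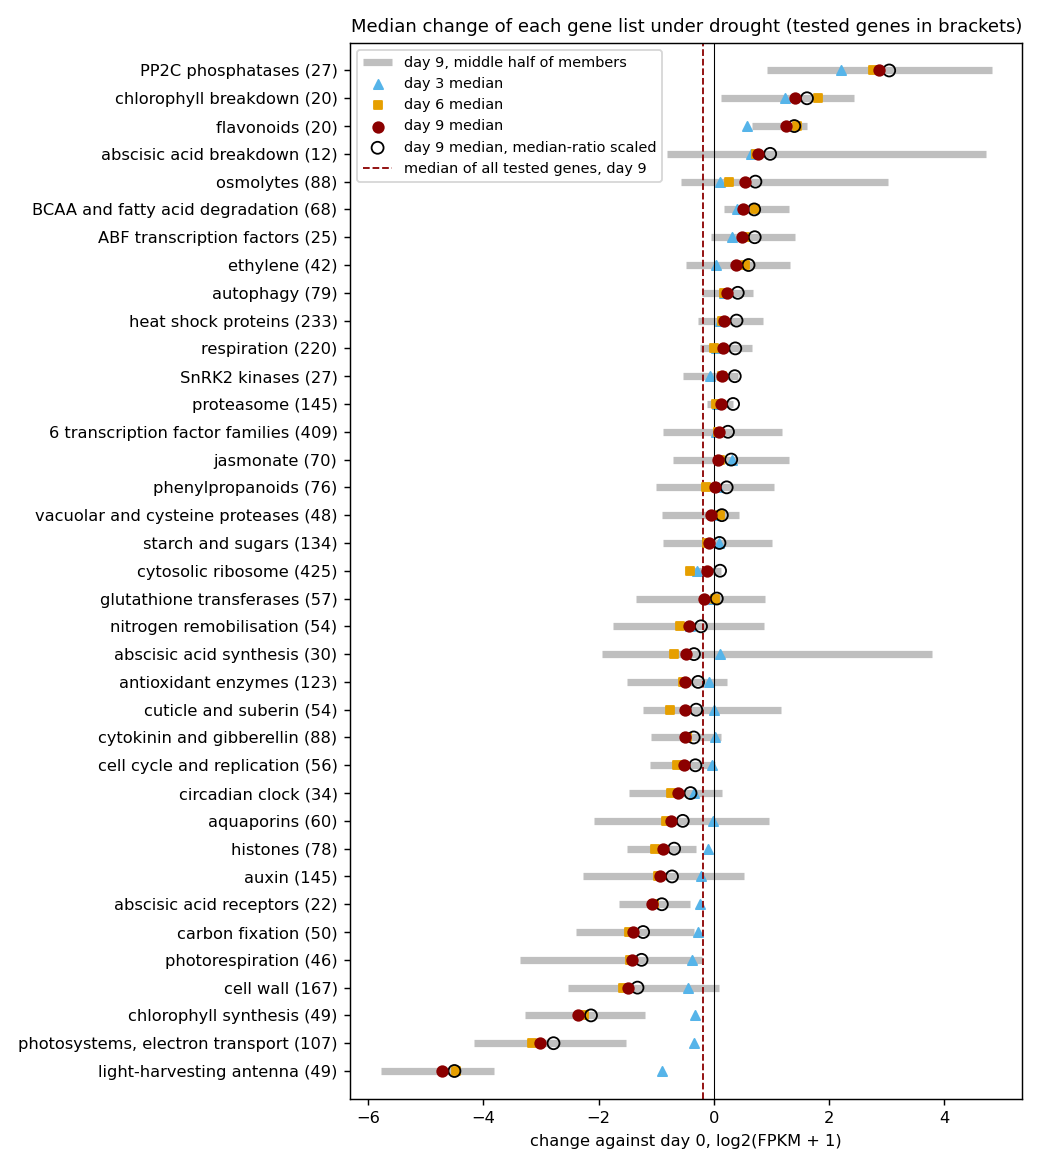
The x axis gives the change against day 0 in log2(FPKM + 1), with a row for each gene list and its number of tested genes in brackets. Red circles are day 9 medians, open circles the same after median-ratio scaling, triangles day 3, squares day 6 and grey bars the range from the lower to the upper quartile on day 9. Chlorophyll breakdown (1.41) and PP2C (2.86) lie on the right, antenna genes (-4.72) far on the left, and scaling moves starch and sugars, vacuolar and cysteine proteases, glutathione transferases and cytosolic ribosome genes across 0.

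Across the KEGG pathways with at least 20 tested genes, the highest median was in cutin, suberine and wax biosynthesis, at 0.71, with 24 genes higher and 16 lower of 40. In that pathway a peroxygenase gene, Pag.B10G000554.v3.1 (PXG), went from 3.4, 2.81 and 4.4 to 144, 136 and 149 FPKM. The next were vitamin B6 metabolism (0.56), taurine and hypotaurine metabolism (0.55) and the citrate cycle (0.43), in which 77 genes rose and 33 fell of 127. Biosynthesis of unsaturated fatty acids (0.39), alpha-linolenic acid (0.36), beta-alanine (0.32), propanoate (0.29), galactose (0.29) and isoquinoline alkaloid pathways (0.28) completed the upper 10. The lowest median was that of the antenna pathway (-4.72), and next to it stood photosynthesis (-1.61), brassinosteroid biosynthesis (-1.26), porphyrin metabolism (-1.09) and steroid biosynthesis (-0.995). They were followed by various plant secondary metabolites (-0.82), cyanoamino acid metabolism (-0.79), other glycan degradation (-0.68), motor proteins (-0.67) and histidine metabolism (-0.66). Among motor proteins the tubulin gene Pag.A06G002754.v3.1 (TUBB) fell from 46.1, 47.04 and 45.6 to 0.5, 0.53 and 0.56 FPKM.

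Among KO names with at least 5 tested genes, GOLS had the highest median, 4.80, and LHCB1 the lowest, -7.26. Between GOLS and FTH1 stood 10HGO, an alcohol dehydrogenase of monoterpene synthesis, with a median of 3.95 and Pag.A01G003076.v3.1 going from 11.3, 9.44 and 10.9 to 690.4, 607 and 677 FPKM. CYP79A2, known in Arabidopsis to turn phenylalanine into its oxime, had a median of 3.05, with Pag.B13G001530.v3.1 going from 0.43, 0.96 and 0.69 to 15.7, 19.4 and 19.4 FPKM. Monoacylglycerol lipase (MGLL) had a median of 2.42. At the lower end, next to LHCB1, stood sesquiterpene or diterpene synthase entries named GERD and E4.2.3.8 together, with a median of -6.68. Pag.B08G000021.v3.1 of that name went from 205, 233 and 215 FPKM to 0.58, 0.76 and 0.7 FPKM, a log2 change of -7.03 ± 0.068 SE (limma adjusted p = 8.91e-10). Among gene ontology terms with at least 50 tested genes, photosystem I was lowest (-4.45), and the citrate cycle term (0.49) and protein import into the mitochondrial matrix (0.38) were among the 5 highest.

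The gene with the most RNA on day 9 carries the KO name WHY1, given to single-stranded DNA-binding Whirly proteins. Pag.B08G000961.v3.1 stood at 44.5, 50.02 and 45.1 FPKM on day 0 and 14473, 13314 and 13843 FPKM on day 9, a log2 change of 8.19 ± 0.056 SE (limma adjusted p = 5.66e-10). It held 1.96 ± 0.075% of the summed FPKM on day 9 (mean ± SD, n = 3) and 0.00638 ± 0.00041% on day 0. The other 4 of the 5 most abundant day 9 genes carry no KO name. Of these, Pag.B04G000892.v3.1 went from 1813, 1770.4 and 1738 to 7385, 7044 and 7271 FPKM and Pag.A01G004426.v3.1, the most abundant on day 0, only from 6475, 6488 and 6503 to 7935, 7029.99 and 7499.9 FPKM. A gene with the KO of cinnamyl alcohol dehydrogenase (K22395), Pag.B06G001593.v3.1, rose from 10.6, 11.7 and 11.2 FPKM to 3060.01, 2731 and 2853 FPKM, a log2 change of 7.89 ± 0.057 SE (limma adjusted p = 5.66e-10). Genes with no KO name moved by at least 1 on the log2 scale more often than named ones, with 13.6% higher and 24.0% lower against 11.2% and 17.2%.

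Days 3 and 6 were each set against the same day 0 libraries, so their values are only placed side by side with those of day 9. For days 3, 6 and 9 in turn, the antenna median was -0.89, -4.47 and -4.72, and the PP2C median was 2.20, 2.77 and 2.86. Day 9 was compared with day 6 directly, a contrast in which no day 0 value is subtracted, although the day 0 libraries share in the estimate of spread and in the choice of the tested genes. The day 9 libraries also share in that choice and the day 6 libraries do not. A gene expressed on day 6 but too low on days 0 and 9 was therefore not tested, while a gene could pass through day 9 alone. This favours calls higher on day 9. In it 5382 genes were higher on day 9 (13.7%) and 3536 lower (9.01%), and only 304 (0.775%) differed by at least 1 on the log2 scale. After median-ratio scaling the balance turned, with 3996 higher (10.2%) and 5180 lower (13.2%), so that the share of these calls that were higher went from 60.3% to 43.5%.

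Every called cytosolic ribosome gene was higher on day 9 than on day 6, on both scales. Of 425 tested genes 327 were higher on day 9 than on day 6 and 0 lower, and after scaling 264 and 0. The differences were small, with a median of 0.28 on the log2 scale, or 0.22 after scaling. Their share of the FPKM sum began at 3.16 ± 0.07% (mean ± SD, n = 3), came to 2.6 ± 0.053% and 2.55 ± 0.038% after 3 and 6 days, and was 3.02 ± 0.068% at the end. Against day 0, 99 rose and 188 fell, with a median of -0.12 that turned to 0.11 under scaling, where 179 were higher and 105 lower. Ribosomal proteins build the machine that makes all cellular protein.

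Other groups also differed between days 6 and 9. Cuticle and suberin genes were higher on day 9 in 29 and lower in 2 of 54, and aquaporins in 24 and 2 of 60. For clock genes the counts were 13 and 3 of 34, and for the nitrogen remobilisation list 20 and 5 of 54. Chlorophyll breakdown genes were lower than on day 6 in 11 of 20 and higher in 0, their median against day 0 being 1.816 on day 6 and 1.41 on day 9. Vacuolar and cysteine proteases were lower in 18 and higher in 4 of 48, and glutathione transferases in 23 and 9 of 57. The named gene with the largest rise from day 6 was a subunit of ADP-glucose pyrophosphorylase (glgC), the enzyme that feeds starch synthesis. Pag.B09G001198.v3.1 stood at 0.53, 0.56 and 0.73 FPKM on day 6 and 9.71, 6.05 and 6.47 FPKM on day 9, a difference of 2.36 (adjusted p = 2.06e-06), after 0.95, 0.54 and 0.68 FPKM on day 0. Methionine gamma-lyase (E4.4.1.11), which breaks methionine down, had a dip on day 6. Pag.A03G000355.v3.1 began at 35.7, 41.4 and 42.01 FPKM and had 708, 704 and 722 FPKM after 3 days, 177, 173 and 188 FPKM after 6 and 553, 633 and 566 FPKM after 9. Another gene of that name, Pag.B03G002075.v3.1, did the reverse, at 48.5, 25 and 33.4 FPKM on day 6 and 12.4, 12.3 and 11.4 FPKM on day 9. Of the 9 ferritin genes, 7 were higher than on day 6.

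**Figure D4:**
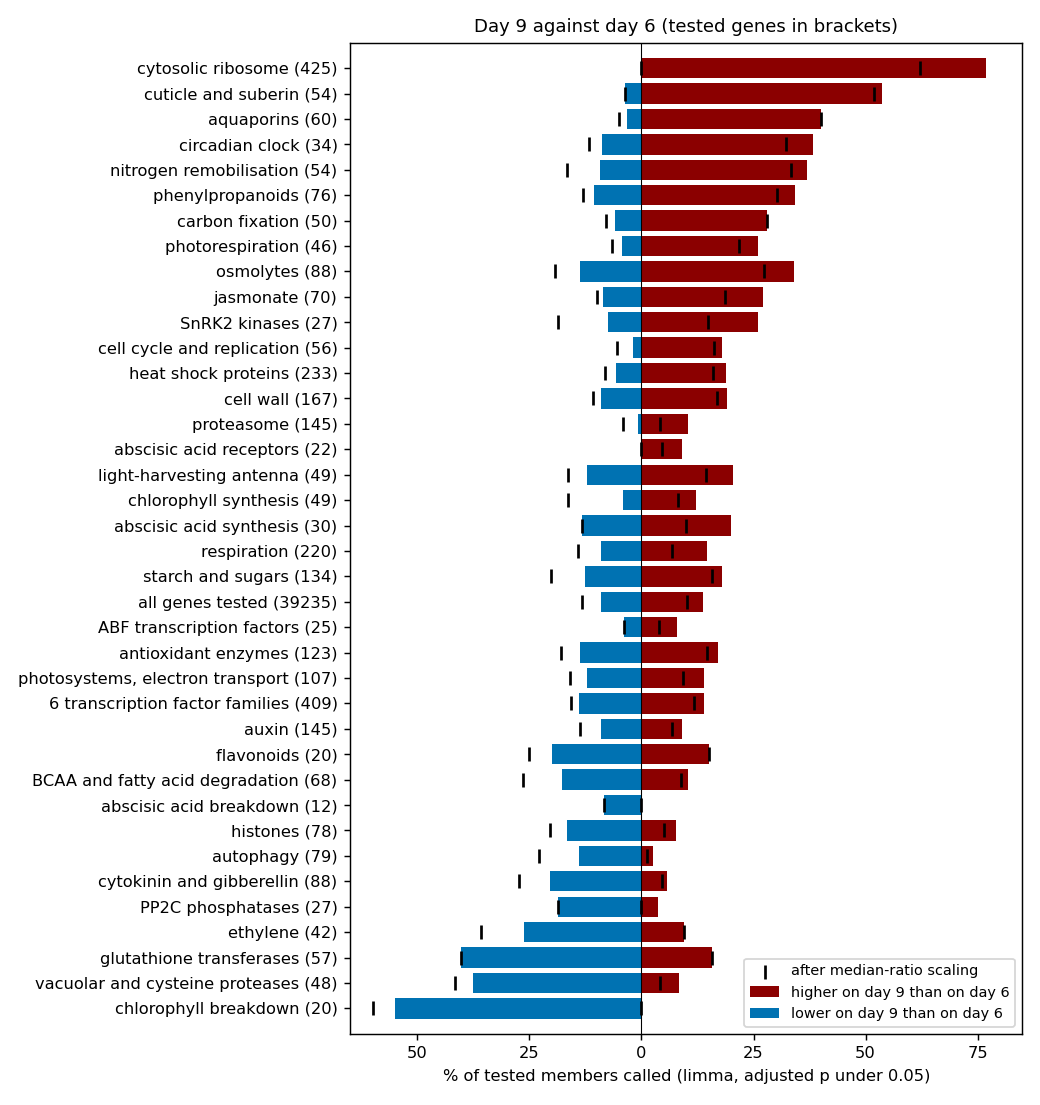
For each gene list (rows, tested genes in brackets) red bars give the percent of tested members called higher on day 9 than on day 6 and blue bars the percent called lower, and black ticks give both after median-ratio scaling. Cytosolic ribosome genes lie at one end, with 327 of 425 higher, and chlorophyll breakdown genes at the other, with 11 of 20 lower, on both scales, while over all tested genes scaling turns the balance from more higher to more lower.

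Several cell type marker lists share genes with the lists above, and the marker lists did not all move the same way. Leaf mesophyll markers, which are mostly photosynthesis genes of the lists above, fell in 57 of 58, with their summed FPKM going from 25943 to 26647 on day 0 to 937 to 1134 on day 9, and 1 of them was listed at 0 in every day 9 library. Markers of dividing cells, which include the histones above, rose in 8 and fell in 45 of 79. They summed to 2291 to 2412 FPKM on day 0 and 1529 to 1713 on day 9. Markers of guard cells rose in 2 and fell in 4 of 7 tested members (20 in the table), with a median log2 change of -1.85. For the 2 of them with a mean of at least 5 FPKM the median was 2.07. The summed FPKM of the 7 tested markers was 26.4 to 32.3 on day 0 and higher on day 9, at 38.8 to 46.0. Markers of xylem and secondary wall, which include the CESA genes above, rose in 12 and fell in 58 of 79. Their median was -1.11, and 5 of them were listed at 0 on day 0. Their summed FPKM overlapped between the days, at 769 to 776 and 747 to 786, and on day 9 it includes the laccase gene Pag.B05G002004.v3.1 given above, at 124, 167 and 169 FPKM. Phloem markers rose in 9 and fell in 7 of 31, and summed to 269.9 to 274 and 301 to 314 FPKM. The part of a change in the mix of cells in the results above was not tested.

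The authors' deposited table of genes for day 9 lists 18590 genes, and 92.0% of them had group means at least 2-fold apart. Of these genes 15701 were tested here and 15557 called, 7036 higher and 8521 lower. Of the 13050 genes called here with a change of at least 1, that table holds 12269.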

How the data were processed

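RNA of leaves was measured in 12 libraries, 3 for each of days 0, 3, 6 and 9, and libraries were grouped by the labelled day. The deposited tables hold FPKM values with 2 decimals, as their column names and file headers state, while the sources used here do not give the aligner, genome build, counting program or strand setting. No read counts were used, and low values of a gene showed no visible step of a whole read from library to library. Depth per library in reads is therefore unknown and no counting interval is given. A rough relative depth, from the most common ratio of low values to those of replicate 1 of day 0, was 0.955 to 1.11 on day 0 and 0.959 to 1.06 on day 9. Whether it follows the number of reads was not tested. Gene names, pathways and ontology terms are those of the deposited table; 18487 of the 39235 tested genes (47.1%) carry a KO name.

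Values were analysed as log2(FPKM + 1). Days 0 and 9 were compared in R 4.3.3 by limma 3.58.1 (eBayes with trend and robust options), with statmod 1.5.0 loaded. The fit took their 6 libraries and the genes at 1 FPKM or more in at least 3 of them. Day 9 was compared with days 6 and 3 in a fit of all 12 libraries, on the same genes. P-values were adjusted by Benjamini and Hochberg over all tested genes, and calls have an adjusted p under 0.05. The median-ratio scaling divides each library by the median ratio of its FPKM values to the gene means, with factors of 1.09 to 1.10 on day 0 and 0.915 to 0.939 on day 9. Summed FPKM of a KO name covers all its models in the table, tested or not. Alternatives were the scaling, pseudocounts of 0.1 and 0.5, other filters, all 12 libraries in 1 fit, no trend or robust option, a replicate block (the replicate number as a fixed term) and leaving out each library. The procedure was run on simulated data in which 200 of 39235 genes, none of them weakly expressed, were changed by 1 or 2 (log2). Of these, 88% and 99% were called, with 12 false calls among the other genes. The real data hold far more called genes, so this run does not give their error rate. Tables used pandas 2.3.3 and numpy 2.4.6 in Python 3.11.15, and figures matplotlib 3.10.9.

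The comparison, the lists of KO names and the rules for named genes were chosen with earlier results of these data known. Named genes are the 10 largest called rises and falls with a KO name, 1 per name, without overlap between the days averaging 5 FPKM or more on the higher day; in each list, the called members that rose and fell most; the 5 most abundant genes of each day; the 5 largest rises and falls from day 6 to day 9; and up to 2 members of each pathway, KO name or ontology term at either end of the ranking. Other members are examples of a family. The deposited gene tables for days 3 and 6 were identical and were not used.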

Additional observations from a re-analysis of the deposited data

Results flagged for a closer look

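The 169 genes counted here were named by rule or as examples chosen after their values were seen. Of them, 76 differed between days 9 and 6 in the fit of 12 libraries, 63 by less than 1 on the log2 scale and 13 by at least 1. Those 13 are given here because their change against day 0 was not the same on both days. Over all tested genes 22.7% differed between days 9 and 6, and 0.775% by at least 1. Some of the named genes were chosen for their change from day 6 to day 9, which fixed part of these calls in advance. The counts are therefore no result about the named genes as a group. The value is the log2 difference of day 9 from day 6 with limma's adjusted p.

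Higher on day 9 than on day 6 were Pag.B09G001198.v3.1 (glgC) by 2.36 (adjusted p = 2.06e-06), Pag.A01G004607.v3.1 (GERD, a sesquiterpene synthase) by 2.14 (adjusted p = 9.34e-05), Pag.A03G000355.v3.1 (methionine gamma-lyase) by 1.69 (adjusted p = 5.05e-08) and Pag.A10G001924.v3.1 (acetolactate synthase small subunit) by 1.65 (adjusted p = 2.25e-07). So were Pag.B01G004072.v3.1 (E1.10.3.1, a catechol oxidase) by 1.62 (adjusted p = 0.000571), Pag.A02G002628.v3.1 (glutathione transferase) by 1.33 (adjusted p = 2.51e-05) and Pag.A09G000601.v3.1 (polygalacturonase) by 1.09 (adjusted p = 0.00042). For Pag.A10G001924.v3.1 and Pag.B01G004072.v3.1 the day 6 level lay below that of day 0 and the day 9 level above it.

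Lower on day 9 than on day 6 were Pag.B07G001485.v3.1 (xyloglucan endotransglucosylase) at -1.94 (adjusted p = 5.03e-05), Pag.B07G000391.v3.1 (ADH1, alcohol dehydrogenase) at -1.66 (adjusted p = 1.82e-05) and Pag.A11G001252.v3.1 (glutathione transferase) at -1.47 (adjusted p = 0.0327). The last of these calls was lost when any 1 library of days 6 and 9 other than replicate 2 of day 9 was left out (adjusted p of 0.0728 to 0.0992). The others were Pag.B02G000239.v3.1 (tubulin) at -1.45 (adjusted p = 4.55e-07), Pag.B03G002075.v3.1 (methionine gamma-lyase) at -1.44 (adjusted p = 0.00251) and Pag.B18G000716.v3.1 (no KO name, listed under photosynthesis in the gene ontology terms) at -1.33 (adjusted p = 1.06e-05). Pag.B07G000391.v3.1 began at 4.15, 4.13 and 5.41 FPKM, had 7.01, 4.72 and 6.85 FPKM after 6 days and at most 1.46 FPKM after 9. With 3 libraries a day, single libraries were not tested as outliers.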

How the results depend on the processing

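Directions against day 0 held in the 169 genes named by rule or as examples, and directions against day 6 in the 13 that differed from it by at least 1, under the alternatives run. Under a mean of at least 5 FPKM fewer genes were tested, 8 of 44 list medians moved by over 1.5 times and 7 changed sign, and the counts against day 0 came to 18985 called, 10255 lower and 4666 lower by at least 1; against day 6, 127 were higher by at least 1. Median-ratio scaling gave 30227 calls, 15343 higher and 14884 lower, and turned the sign of 6 medians, among them that of all genes. Leaving out 1 library gave 29051 to 29517 calls against day 0, 11652 to 11888 of them higher and 17287 to 17747 lower. Against day 6 it gave 6710 to 7905 calls, 3866 to 4918 higher and 2743 to 3268 lower. Same-numbered libraries of days 0 and 9 did not deviate together (r = -0.003, 0.011 and -0.019), so the numbers were not taken as pairs. With a replicate block 29751 genes were called against day 0 and 8213 against day 6. The call of Pag.B01G004072.v3.1 against day 0 was lost under the block (adjusted p = 0.0862) and without replicate 2 or 3 of either day (0.0508 to 0.0672). The call of Pag.A11G001252.v3.1 against day 6 was lost under the block (adjusted p = 0.0505) and when any 1 library of days 6 and 9 other than replicate 2 of day 9 was left out (0.0728 to 0.0992). The cause was not tested. Genes near 1 FPKM rest on little signal, and the number of libraries limits the precision.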

Other observations

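Lipid transport genes took a larger share of leaf RNA on day 9. Of 98 tested genes under that ontology term 51 were higher and 31 lower, against 31.2% and 46.3% over all tested genes. The genes of the term held 0.697 ± 0.0063% (mean ± SD, n = 3) of the summed FPKM on day 0 and 2.54 ± 0.036% on day 9. Genes of the chloroplast thylakoid membrane term went the other way, from 5.2 ± 0.068% to 0.475 ± 0.021%. Against day 6, 13.7% of all tested genes were higher on day 9 and 9.01% lower, or 10.2% and 13.2% after median-ratio scaling. On the deposited scale, genes with UDP-glycosyltransferase activity, which attach sugars to small molecules, were lower on day 9 than on day 6 in 31 and higher in 7 of 121. Genes under the ethylene-activated signalling term were lower in 21 and higher in 4 of 88. These terms were picked after their values were seen.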
